A study of Mus musculus with 19 samples.

Results

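Corticospinal motor neurons (CSMN) at postnatal day 14 (P14) were compared with the same neuron type at postnatal day 6 (P6), using the 2 arrays labelled with each age, 4 of the 19 arrays of the series. Both groups came from C57BL/6 mice. Per the labels, the neurons were marked by green fluorescent microspheres carried back from an injected axonal field, dissociated and isolated by fluorescence-activated cell sorting, and each array came from its own collection. How many mice were pooled for an array is not given in the sources used here. For reference within the series, callosal projection neurons (CPN) of the same ages gave 2 arrays each, and CSMN at P3 gave 3. The arrays were Affymetrix whole-genome mouse arrays, and every level below is a log2 value from robust multiarray averaging (RMA), so a difference of 1 is a doubling. In sorted bulk RNA, fewer cells of a type and less RNA per cell cannot be told apart.

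CSMN are layer V pyramidal neurons whose axons run to the spinal cord and control skilled movement. Between the first and the second postnatal weeks they leave the phase of long-distance axon growth, prune collaterals, form synapses, thicken and myelinate their axons, and acquire mature excitability. Bcl11b (the transcription factor Ctip2) and Fezf2 specify these neurons and their projection to the cord.

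One of the P14 arrays stood apart from the series. P14 replicate 2 had a 3' minus 5' difference of 2.16 for the Actb control probe sets, against 0.58 to 1.48 on the other 18 arrays, and of 3.08 for the Gapdh controls, against 1.39 to 2.78. Its Tfrc and Pcx control differences, 0.59 and 0.73, lay within the range of the others. Its median, 6.62, was the highest of the 19 arrays and its upper quartile, 7.85, the lowest, while the SD of its values lay within the range of the others. The 2 P14 arrays correlated at r = 0.904 across 18193 genes, against 0.949 to 0.996 in the 10 other replicate pairs. Their median absolute difference per gene was 0.65, against 0.10 to 0.37 in those pairs. Replicate 2 was the lower of the 2 in 55.2% of all genes, and its mean level was the lower in 28 of the 34 gene lists described below. Counts of calls are therefore given with all arrays and again without P14 replicate 2, where P14 rests on 1 array that is taken to vary like the other groups. Values of single genes are from all arrays unless stated, and the value without P14 replicate 2 is added where it ends the call or moves the fold by over 1.5 times.

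**Figure D1:**
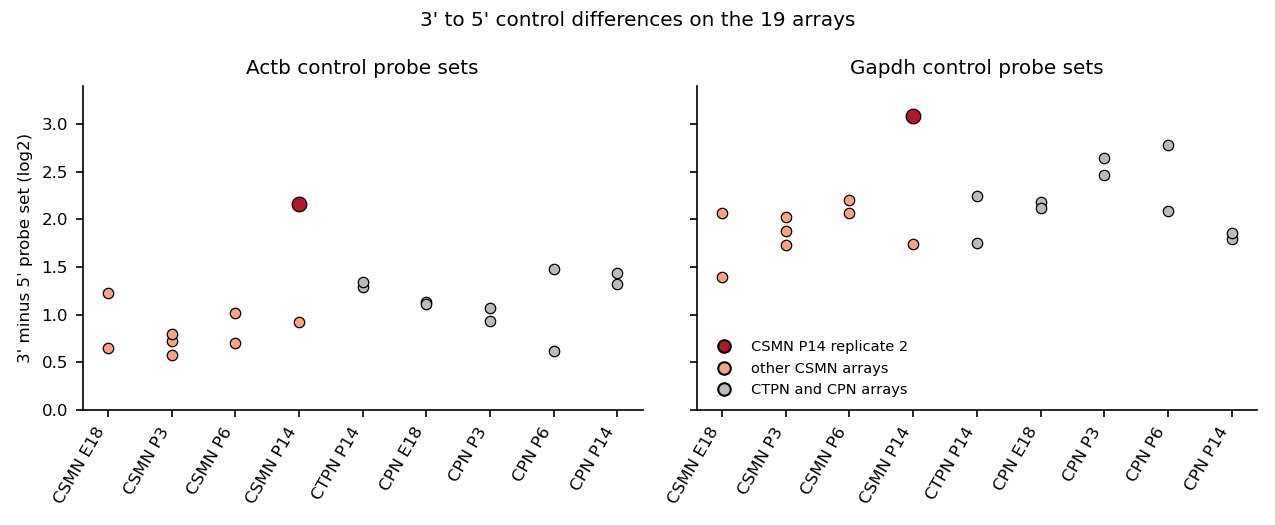
Differences between the 3' and the 5' probe sets of the Actb and Gapdh array controls (log2) for all 19 arrays, 1 point per array, by neuron type and stage (CTPN, corticotectal projection neurons). CSMN P14 replicate 2, at 2.16 and 3.08, is above every other array in both panels.

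Bcl11b, Fezf2 and Crym, which mark the labelled neuron type, stood above the array medians in all 4 arrays. Bcl11b stood at 11.35 and 11.37 in P14 CSMN, against 12.47 and 12.36 in P6 CSMN, and at 7.19 to 8.65 in the 4 CPN arrays of these ages. Fezf2 stood at 10.89 and 10.12 in P14 CSMN, against 10.88 and 10.76 in P6 CSMN. For Crym, a thyroid hormone binding protein and layer V marker, the levels were 12.44 and 11.94 in P14 CSMN, against 12.51 and 12.50 in P6 CSMN. In CPN Crym had 9.40 and 9.03 at P14, and 5.24 and 6.77 at P6. All 24 measured genes of the corticospinal and layer V list lay above the array medians in each of the 4 arrays. All 45 oxidative phosphorylation genes did so too, so this alone does not tell the neuron type. The mean level of the corticospinal and layer V list was 10.25 and 9.72 in P14 CSMN, and 10.20 in both P6 CSMN arrays. It was 8.195 to 8.66 in the 4 CPN arrays of these ages. The list was chosen with earlier results of these data known, so this gap is not an independent check of identity. The array medians ran from 6.42 to 6.62, and fold changes are given below only for genes above the highest of them in all 4 CSMN arrays.

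At P14, 1097 of 18193 genes (6.03%) differed from P6 at a Benjamini-Hochberg adjusted p under 0.05 in limma, 319 higher (1.75%) and 778 lower (4.28%). Without P14 replicate 2, 581 genes met the threshold (3.19%), with 381 higher (2.09%) and 200 lower (1.1%), so the share of higher calls was 29.1% with all arrays and 65.6% without that array. Both ways and in the same direction, 386 genes met it (2.12%), with 200 higher (1.1%) and 186 lower (1.02%). Of these, 168 higher (0.923%) and 170 lower (0.934%) also differed by at least 2-fold both ways, 338 in all (1.86%). None of the 1097 genes changed sign when the array was left out, and 711 lost their call, 592 of them lower at P14. Conversely, 195 genes passed only without it, 181 of them higher. Both P14 arrays lay beyond both P6 arrays in all 386 genes, and in 47.4% of all genes. The 386 were picked for a difference on these same arrays, so the lack of overlap adds no support. Both fits hold P14 replicate 1, so a call both ways still depends on that array.

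The model shares 1 spread per gene over all groups, while the P14 pair differed more than any other pair. With weights that let arrays differ in precision, 42 genes passed (10 higher, 32 lower, all within the 386). Both P14 arrays got the same weight, 0.143, as the 2 arrays of a group with its own mean must. The weights therefore cannot tell whether replicate 2 is less precise than replicate 1. A model of the CSMN P14 and P6 arrays alone called 0, with 1533 genes at an unadjusted p under 0.05. Leaving out single arrays gave 172 calls without P6 replicate 1, 106 without P6 replicate 2 and 7831 without P14 replicate 1.

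Among the 12 genes named for the largest rises at P14, Nefh, the heavy neurofilament subunit of large axons, had the largest difference. It stood at 11.56 and 10.99 in P14 CSMN, against 8.82 and 7.92 in P6 CSMN, 7.49-fold higher (2.90 ± 0.47 on the log2 scale, SE; adjusted p = 0.00327). The difference was 3.19 without P14 replicate 2 (adjusted p = 0.00685), while without P6 replicate 2 it was 2.46 and no longer passed (adjusted p = 0.0721). Camk2a, the alpha subunit of the synaptic calcium/calmodulin kinase, stood at 11.73 and 12.11 in P14 CSMN, against 9.39 and 9.59 in P6 CSMN (5.36-fold; 2.42 ± 0.27, adjusted p = 0.000290), with 5 of its 6 probe sets pointing the same way. Lamp5, a neuronal member of the lysosome-associated membrane protein family, had 11.23 and 11.21 in P14 CSMN, against 8.82 and 8.14 in P6 CSMN (6.67-fold). The P14 arrays lay above both P6 arrays for each of these genes, as the rule for naming them required.

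Of the other rises, Nrn1 (neuritin, an activity-regulated surface protein of neurites) stood at 10.75 and 11.28 in P14 CSMN, against 8.54 and 8.11 in P6 CSMN (6.45-fold). Syt13, a synaptotagmin, had 10.30 and 9.21 in P14 CSMN, against 7.27 and 7.26 in P6 CSMN (5.62-fold), with replicate 2 the lower P14 array. For Septin8, a septin found at presynaptic vesicles, the values were 11.88 and 11.91 in P14 CSMN, against 9.55 and 9.15 in P6 CSMN (5.84-fold). Only 2 of its 3 probe sets had that sign, and 1 of 3 without P14 replicate 2. Tesc (tescalcin, a calcium-binding protein) had 10.70 and 10.59 in P14 CSMN, against 8.72 and 8.07 in P6 CSMN (4.75-fold).

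The 5 remaining genes of the 12 largest rises lay below the highest array median in 1 or both P6 arrays. These were Sowahb, Sgpp2 (a sphingosine-1-phosphate phosphatase), Dusp14 (a dual-specificity phosphatase), Fbxo2 (an F-box protein that recognises glycoproteins) and Rhbdl3 (a rhomboid-like protein), with log2 differences of 2.78, 2.63, 2.54, 2.31 and 2.28. Sgpp2 and Rhbdl3 had the closest replicates, at 8.92 and 8.79 in P14 CSMN against 6.21 and 6.24 in P6 CSMN for Sgpp2, and 8.36 and 8.47 against 6.15 and 6.11 for Rhbdl3. Passing without P14 replicate 2 and no overlap between the ages were conditions for naming these 12. With array weights, Nefh, Lamp5, Nrn1, Fbxo2 and Tesc did not pass (adjusted p = 0.0713 to 0.252) and the other 7 did.

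**Figure D2:**
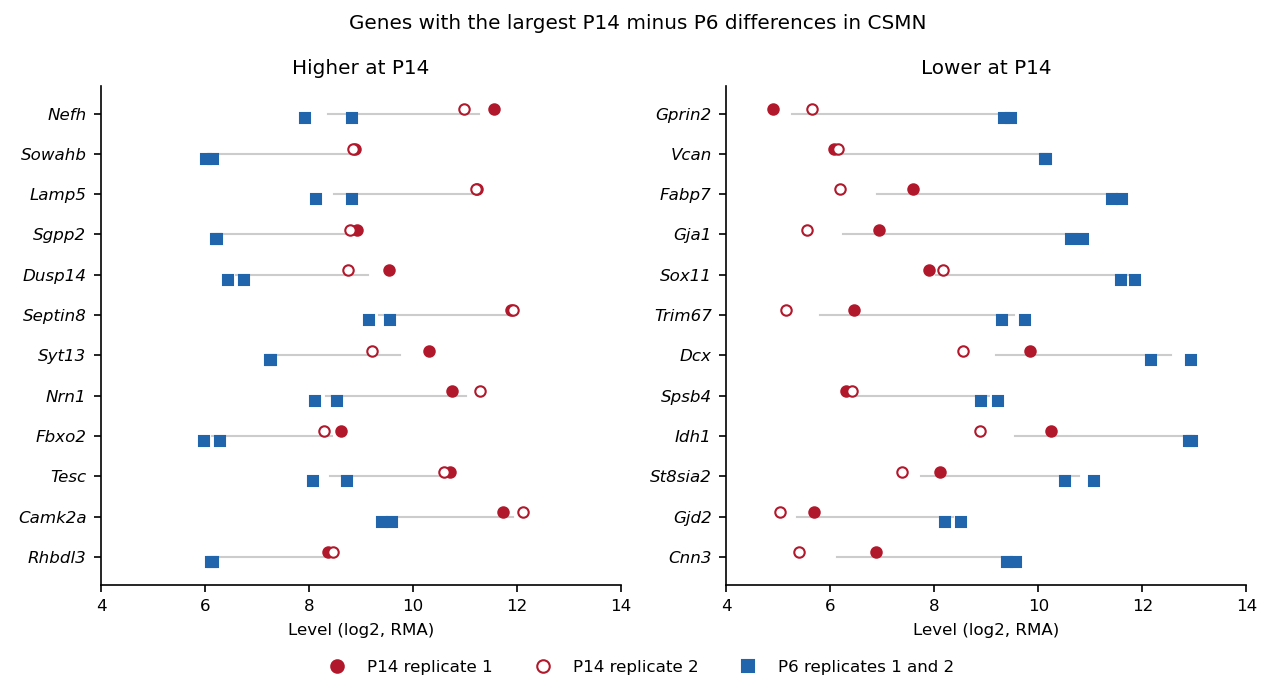
Levels (log2, RMA) of the 12 genes with the largest rises and the 12 with the largest falls at P14, 1 symbol per array, with grey lines joining the group means. In every row both P14 circles lie on the same side of both P6 squares, which was a condition for naming the genes. The open circles of P14 replicate 2 lie at or left of the filled ones for most genes.

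The 12 genes named for the largest falls were chosen by the same conditions. Sox11, a transcription factor of newly formed neurons, stood at 7.91 and 8.17 in P14 CSMN, against 11.59 and 11.87 in P6 CSMN, 12.9-fold lower (−3.69 ± 0.22, adjusted p = 8.27e-07, and −3.82 without P14 replicate 2). Dcx (doublecortin), a microtubule protein of migrating and extending neurons, had 9.84 and 8.55 in P14 CSMN, against 12.17 and 12.93 in P6 CSMN (10.2-fold lower; −3.35 ± 0.46, adjusted p = 0.00127, and −2.71 without P14 replicate 2). St8sia2, which adds polysialic acid to the adhesion molecule NCAM, had 8.11 and 7.38 in P14 CSMN, against 10.51 and 11.07 in P6 CSMN (8.26-fold lower). Idh1, the cytosolic isocitrate dehydrogenase that makes NADPH, had 10.24 and 8.88 in P14 CSMN, against 12.90 and 12.96 in P6 CSMN (10.3-fold lower; −3.37 with all arrays and −2.69 without P14 replicate 2). All 6 probe sets of Sox11, all 4 of Dcx and both of St8sia2 and of Idh1 had the same sign.

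Several of the falls ended below the array medians. Vcan (versican, a chondroitin sulphate proteoglycan) stood at 6.07 and 6.15 in P14 CSMN, against 10.14 and 10.14 in P6 CSMN (−4.03 ± 0.20, adjusted p = 1.23e-07). Only 4 of its 8 probe sets had that sign, and their mean differed by −0.53 (adjusted p = 0.0845). Gprin2, a G protein-regulated inducer of neurite outgrowth, had 4.90 and 5.64 in P14 CSMN, against 9.34 and 9.47 in P6 CSMN (−4.13). Trim67, a ubiquitin ligase that acts in netrin-dependent axon branching in the mouse, had 6.47 and 5.15 in P14 CSMN, against 9.31 and 9.74 in P6 CSMN (−3.72, and −3.06 without P14 replicate 2). Gjd2 (connexin 36, the gap junction protein of neurons) had 5.68 and 5.04 in P14 CSMN, against 8.52 and 8.21 in P6 CSMN (−3.00). Cnn3 (an actin-binding calponin) and Spsb4 (a SOCS-box protein) differed by −3.35 and −2.70, and Cnn3 by −2.61 without P14 replicate 2.

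Fabp7 and Gja1, both best known from radial glia and astrocytes, completed the 12. Fabp7 (a fatty acid binding protein) stood at 7.597 and 6.196 in P14 CSMN, against 11.60 and 11.42 in P6 CSMN (−4.62 ± 0.72, adjusted p = 0.00263, and −3.92 without P14 replicate 2). Gja1 (connexin 43) stood at 6.94 and 5.56 in P14 CSMN, against 10.85 and 10.63 in P6 CSMN (−4.49 ± 0.73, adjusted p = 0.00335, and −3.80 without P14 replicate 2), with 5 of 6 probe sets of that sign. At E18, CSMN arrays had Fabp7 at 5.89 and 4.86 and Gja1 at 4.93 and 4.23. At P3 they had Fabp7 at 10.44, 9.83 and 11.73 and Gja1 at 7.37, 6.48 and 7.90, so Gja1 was higher at P6 than at every other stage, while Fabp7 overlapped between P3 and P6. With array weights Fabp7, Gja1, Dcx, Spsb4 and St8sia2 did not pass (adjusted p = 0.0713 to 0.179).

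The mean level of the 22 measured astrocyte markers moved with these falls. It was 7.99 and 7.82 in P14 CSMN, against 8.57 and 8.68 in P6 CSMN, and earlier 7.21 and 6.99 at E18 and 7.54 to 7.90 at P3. Of the 22, 5 fell, 1 rose and 16 did not pass, and 3 of the falls also passed without P14 replicate 2. Slc1a3, the glial glutamate transporter GLAST, stood at 7.24 and 7.30 in P14 CSMN, against 9.29 and 9.89 in P6 CSMN (4.98-fold lower, adjusted p = 0.00188), with 3 of 6 probe sets of that sign. Fgfr3, a fibroblast growth factor receptor, had 6.30 and 6.17 in P14 CSMN, against 7.74 and 8.11 in P6 CSMN (adjusted p = 0.00681). Gpc5, a glypican, fell by 1.99 with all arrays and did not pass without P14 replicate 2 (adjusted p = 0.0731). S100b, a calcium-binding protein of glia, rose instead, to 7.87 and 9.22 in P14 CSMN, against 6.32 and 6.197 in P6 CSMN (2.29 ± 0.39, adjusted p = 0.00426, and 1.61 without P14 replicate 2). The defining markers Gfap and Aqp4 did not pass, with Gfap at 6.80 and 6.66 in P14 CSMN against 7.04 and 7.08 in P6 CSMN, and Aqp4 at 7.45 and 7.89 against 7.61 and 7.57. Between 15 and 17 of the 22 lay above the highest array median in each of the 4 arrays. The share of the list called with all arrays was 27.3%, against 6.03% of all genes. The part of glial RNA in the falls of Fabp7, Gja1, Vcan, Ptprz1 and Ncan was not tested.

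Of the 20 measured oligodendrocyte and myelin genes, 2 fell, 0 rose and 18 did not pass, with the same counts without P14 replicate 2. Ermn (ermin, a cytoskeletal protein of myelinating cells) stood at 7.32 and 5.24 in P14 CSMN, against 9.34 and 9.33 in P6 CSMN (−3.06 ± 0.50, adjusted p = 0.00341, and −2.01 without P14 replicate 2), and at 4.05 to 4.57 in the CPN arrays of both ages. Gpr37, a receptor of the same lineage, had 6.66 and 6.75 in P14 CSMN, against 8.02 and 8.51 in P6 CSMN. Mbp, the major myelin basic protein, did not pass, at 9.89 and 9.53 in P14 CSMN against 9.47 and 9.71 in P6 CSMN, and the list's mean level was 6.65 and 6.86 in P14 CSMN against 6.95 and 6.90 in P6 CSMN. The share of the list called with all arrays was 10%, against 6.03% of all genes.

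The other marker lists had few calls. For microglia (15 genes) 0 passed with all arrays and 1 rose without P14 replicate 2, and the mean level was 8.23 and 6.92 in P14 CSMN against 7.178 and 7.995 in P6 CSMN, so the ages overlapped. Among 19 interneuron genes 1 rose, Slc32a1, the vesicular GABA transporter, at 7.63 and 8.59 in P14 CSMN against 6.30 and 5.80 in P6 CSMN (adjusted p = 0.0259, and 0.187 without P14 replicate 2). Their mean level was 6.84 and 7.23 in P14 CSMN, against 6.46 and 6.33 in P6 CSMN. None of 17 endothelial and pericyte genes or 3 erythrocyte genes passed. Of the 7 genes of oligodendrocyte precursors, Vcan alone passed. In the cell cycle list, Rrm2 (a ribonucleotide reductase subunit) fell, to 6.78 and 5.82 in P14 CSMN against 9.19 and 9.09 in P6 CSMN (2 of 3 probe sets), and 27 of 28 genes did not pass. Rorb and Limch1 of 21 upper-layer genes and Foxp2 of 14 layer VI genes fell with all arrays (by 2.07, 1.32 and 1.26) and did not pass without P14 replicate 2. For Limch1 2 of 4 probe sets, and for Foxp2 5 of 6, had that sign, and without P14 replicate 2 it was 4 of 4 and 4 of 6. With all arrays 5.26% of the interneuron, 9.52% of the upper-layer, 7.14% of the layer VI and 3.57% of the cell cycle genes were called. Over all genes it was 6.03%.

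Among genes that mark the neurons' identity, the corticospinal and layer V list had a median difference of −0.35 with all arrays and −0.13 without P14 replicate 2, against 0.04 and 0.00 for all genes. Of its 24 genes, 3 rose, 2 fell and 19 did not pass. Cdh22, a type II cadherin, stood at 10.21 and 9.13 in P14 CSMN, against 7.76 and 7.48 in P6 CSMN (4.15-fold, adjusted p = 0.00141). Opn3, a non-visual opsin, was 1.69-fold higher (adjusted p = 0.0439). Igfbp4, a binding protein of insulin-like growth factors, had 12.60 and 12.41 in P14 CSMN, against 11.59 and 11.55 in P6 CSMN (1.92-fold, adjusted p = 0.0150), and all 3 passed without P14 replicate 2. Tcerg1l and Oma1 fell with all arrays, by 1.205 and 1.002, and did not pass without that array (adjusted p = 0.0913 and 0.226). For Tcerg1l 1 of 2 probe sets had that sign. Bcl11b was 2.08-fold lower at P14 without passing (−1.05 ± 0.42, adjusted p = 0.149), and its replicates agreed closely at both ages. Fezf2 and Crym differed by −0.31 and −0.32 with adjusted p = 0.493 and 0.695. Of the list, 20.8% was called with all arrays, against 6.03% of all genes.

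Several genes of large axons and of excitability rose at P14. In the list of neurofilaments and axonal transport, 2 of 22 genes rose and 0 fell, and without P14 replicate 2 it was 4 and 0, with list medians of 0.20 and 0.48. The share of this list called with all arrays was 9.09%, against 6.03% of all genes. Nefm, the medium neurofilament subunit, stood at 12.49 and 11.91 in P14 CSMN, against 11.37 and 10.87 in P6 CSMN (2.11-fold, adjusted p = 0.0274). Nefl, the light subunit, had 13.75 and 13.56 in P14 CSMN, against 13.14 and 12.69 in P6 CSMN, and did not pass (adjusted p = 0.124).

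Among 22 genes of the axon initial segment and the node of Ranvier, where action potentials start and are renewed, 4 rose and 1 fell. This was 22.7% of the list, against 6.03% of all genes called. Scn4b, a beta subunit of sodium channels, stood at 7.56 and 6.55 in P14 CSMN, against 5.58 and 5.39 in P6 CSMN (1.56 ± 0.27, adjusted p = 0.00464). Scn2b, another beta subunit, had 11.00 and 10.18 in P14 CSMN, against 9.38 and 9.14 in P6 CSMN (2.51-fold). Kcnab2, which sits with potassium channels beside the node, had 9.60 and 9.01 in P14 CSMN, against 7.43 and 7.38 in P6 CSMN (3.71-fold). These 3 also passed without P14 replicate 2, whereas Scn1a, a pore-forming sodium channel subunit, did not: it stood at 10.70 and 10.22 in P14 CSMN, against 7.99 and 8.54 in P6 CSMN (4.56-fold, adjusted p = 0.0358 with all arrays and 0.0801 without). Kcnq3, a subunit of the M-type potassium channel of the initial segment, was the member that fell, by 0.77, with all arrays alone (adjusted p = 0.0351, and 0.188 without).

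For potassium and HCN channels, 2 of 36 genes rose and 0 fell with all arrays (5.56% called, against 6.03% of all genes), and 4 rose without P14 replicate 2. Kcnf1, a modifying potassium channel subunit, stood at 10.27 and 9.23 in P14 CSMN, against 7.89 and 7.61 in P6 CSMN (3.99-fold, adjusted p = 0.0169). Kcnh3, of the ether-a-go-go family, rose by 1.12 with all arrays but did not pass without replicate 2 (adjusted p = 0.102). None of 13 voltage-gated calcium channel genes passed with all arrays, and 1 rose without P14 replicate 2, Cacna1g, a T-type channel, at 10.18 and 8.66 in P14 CSMN against 8.60 and 8.63 in P6 CSMN.

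In the presynaptic release list 6 of 33 genes rose and 1 fell with all arrays (21.2% called), 8 rose and 1 fell without P14 replicate 2, and the list medians were 0.37 and 0.64. Over all genes, 29.1% of the calls were rises with all arrays and 65.6% without that array. Slc17a7 (VGLUT1, which loads glutamate into synaptic vesicles) stood at 10.42 and 8.59 in P14 CSMN, against 7.68 and 7.87 in P6 CSMN (3.33-fold; 1.74 ± 0.46, adjusted p = 0.0386, and 2.65 with adjusted p = 0.00164 without P14 replicate 2). Both P14 arrays were above both P6 arrays, although replicate 2 by less, and the difference was 0.82 without P14 replicate 1. Vamp1 and Vamp2, the vesicle SNARE proteins, were 2.45-fold and 2.10-fold higher, and Nsf, the ATPase that recycles SNARE complexes, 2.06-fold (adjusted p = 0.00514, 0.0425 and 0.0303), all 3 both ways. Syn2 (synapsin II) had 10.56 and 11.06 in P14 CSMN, against 9.70 and 9.34 in P6 CSMN, and did not pass without that array (adjusted p = 0.132). Syn3 (synapsin III), the synapsin of young neurons, went the other way, with 8.46 and 6.03 in P14 CSMN against 10.06 and 10.22 in P6 CSMN (−2.90 ± 0.50, adjusted p = 0.00472, and −1.69 without P14 replicate 2; 2 of 3 probe sets).

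In the list of glutamate receptors and the postsynaptic density, 4 of 35 genes rose and 1 fell with all arrays, and likewise 4 and 1 without P14 replicate 2. Camk2a and Grik4, a kainate receptor subunit, rose both ways, Grik4 at 7.99 and 7.72 in P14 CSMN against 6.94 and 6.96 in P6 CSMN (1.87-fold, adjusted p = 0.0307). Grm3, a metabotropic glutamate receptor, fell to 9.65 and 9.74 in P14 CSMN, against 11.26 and 11.67 in P6 CSMN (3.405-fold lower, adjusted p = 0.00151). Gria3, an AMPA receptor subunit, and Grik5, another kainate subunit, rose by 1.84 and 1.21 with all arrays and did not pass without P14 replicate 2 (adjusted p = 0.0746 and 0.0928). Grin2b and Grin2a, the early and late partners of the NMDA receptor, did not pass: Grin2b had 9.54 and 7.92 in P14 CSMN against 9.42 and 9.57 in P6 CSMN, and Grin2a lay below the array medians at both ages. With all arrays 14.3% of this list was called, against 6.03% of all genes.

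None of the 14 measured genes of GABA receptors and chloride transport passed with all arrays. Slc12a5 (KCC2, the chloride extruder that makes GABA inhibitory) stood at 13.10 and 12.10 in P14 CSMN, against 11.87 and 11.77 in P6 CSMN (0.78 ± 0.27, adjusted p = 0.101). It passed without P14 replicate 2 (1.28, adjusted p = 0.00599) and, with all arrays, under cyclic loess or quantile normalization or the mean of its probe sets (adjusted p = 0.00678, 0.0231 and 0.0229).

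Of 32 genes of calcium and calmodulin signalling, 2 rose with all arrays and 3 without P14 replicate 2, 0 fell either way, and the list medians were 0.51 and 0.53. With all arrays 6.25% of the list was called, against 6.03% of all genes. Itpka, an inositol trisphosphate kinase of dendritic spines, stood at 10.84 and 10.46 in P14 CSMN, against 9.64 and 9.31 in P6 CSMN (2.26-fold, adjusted p = 0.0280). S100b was the other member that rose. Nrgn (neurogranin, which buffers calmodulin in spines) did not pass, with 12.72 and 12.44 in P14 CSMN against 12.43 and 12.45 in P6 CSMN.

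Immediate early and stress genes, which neurons switch on within minutes of activity or injury, had list medians of 0.60 with all arrays and 0.93 without P14 replicate 2, the highest of the 34 lists both ways. Of the 31 genes, 5 rose and 0 fell with all arrays (16.1% called), and 10 rose without P14 replicate 2. Arc, which adjusts AMPA receptors at synapses, stood at 9.09 and 7.64 in P14 CSMN, against 6.38 and 6.33 in P6 CSMN (2.01 ± 0.33, adjusted p = 0.00336, and 2.74 without P14 replicate 2). Egr4, a zinc-finger factor, had 10.14 and 10.41 in P14 CSMN, against 8.47 and 8.38 in P6 CSMN (3.61-fold, adjusted p = 0.00466). Dusp1, a phosphatase that limits MAP kinases, had 10.69 and 9.91 in P14 CSMN, against 8.68 and 9.24 in P6 CSMN (2.52-fold, adjusted p = 0.0442). The Dusp1 difference was 1.335 with all arrays and 0.94 without P14 replicate 1. Over all genes, 6.03% were called with all arrays.

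Gadd45b, a stress and DNA demethylation gene, had 8.88 and 8.54 in P14 CSMN, against 7.63 and 7.86 in P6 CSMN (1.95-fold, adjusted p = 0.0232). These 4 passed both ways, and Egr1, at 11.92 and 11.79 in P14 CSMN against 9.97 and 9.82 in P6 CSMN, passed with all arrays only (adjusted p = 0.0220, and 0.0664 without P14 replicate 2). Fos did not pass either way. Nr4a1, Npas4, Atf3, Ddit3, Hspa1a and Hspa1b passed only without P14 replicate 2. Hspa1a, a heat shock protein, had 8.73 and 6.13 in P14 CSMN against 6.72 and 6.24 in P6 CSMN, so P14 replicate 1 alone stood high.

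The upstream sequences of the genes that rose both ways were read for the element that the activity-dependent factor CREB binds, TGACGTCA, and for its core TGACG, on both strands. The full element reads the same on both strands and holds the core once on each strand, overlapping. Promoters of RefSeq genes (GRCm38.p6; 250 bases before the start to 50 after it) were available for 27 of the 31 genes of the list. Of these 27 genes, 15 held the core and 2 the full element in any of their promoters. Counted per promoter and not per gene, 20.8% of all 32851 promoters held the core and 1.79% the full element. A gene with several promoters has more openings for a match, so the 2 counts are not on the same unit. Of the genes of the list that rose both ways, Egr4, Dusp1 and Gadd45b had an entry, and they are shown for that reason alone. The stretches run 5′ to 3′ on the gene's strand from base −200 to base −31 before the start, with every core match in capitals.
Egr4: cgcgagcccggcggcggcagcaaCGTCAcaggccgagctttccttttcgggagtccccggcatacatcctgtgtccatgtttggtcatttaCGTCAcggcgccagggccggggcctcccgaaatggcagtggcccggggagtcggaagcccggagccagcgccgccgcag
Dusp1: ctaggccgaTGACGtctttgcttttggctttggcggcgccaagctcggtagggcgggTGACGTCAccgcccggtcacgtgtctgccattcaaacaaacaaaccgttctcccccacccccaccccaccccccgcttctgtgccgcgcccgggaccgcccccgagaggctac
Gadd45b: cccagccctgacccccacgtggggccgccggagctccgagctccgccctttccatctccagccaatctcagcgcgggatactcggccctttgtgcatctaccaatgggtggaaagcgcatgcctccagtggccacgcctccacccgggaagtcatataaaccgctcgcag
The stretches lie at chr6:85513620-85513789 (minus strand) for Egr4, chr17:26508503-26508672 (minus strand) for Dusp1 and chr10:80929891-80930060 (plus strand) for Gadd45b. Egr4 had core matches starting at −177 and −109, Dusp1 had 1 at −191 and the full element at −143, and these letters are not in the Gadd45b window. A match is a description of the sequence and not a measured binding site.

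In the growth cone and axon extension list 6 of 36 genes fell and 1 rose with all arrays (19.4% called), and 3 fell and 1 rose without P14 replicate 2, with list medians of −0.45 and −0.18. Over all genes, 4.28% fell and 1.75% rose with all arrays, and 1.1% fell and 2.09% rose without that array. Shtn1 (shootin 1, which couples actin flow to adhesion in growth cones) stood at 10.20 and 8.44 in P14 CSMN, against 11.61 and 11.66 in P6 CSMN (4.97-fold lower; −2.31 with all arrays, adjusted p = 0.00681, and −1.43 without P14 replicate 2). Marcks, an actin-regulating substrate of protein kinase C, had 10.43 and 9.84 in P14 CSMN, against 11.90 and 12.17 in P6 CSMN (3.73-fold lower, adjusted p = 0.000253, all 7 probe sets). Dcx, Shtn1 and Marcks fell both ways.

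Dpysl3, a collapsin response mediator, fell with all arrays alone (12.84 and 10.64 in P14 CSMN, against 13.35 and 13.47 in P6 CSMN, adjusted p = 0.0445), and its difference was −0.57 without P14 replicate 2 (adjusted p = 0.278). Gap43, the growth-associated protein of extending axons, did not pass: it stood at 13.26 and 13.04 in P14 CSMN, against 13.45 and 13.46 in P6 CSMN (−0.30 ± 0.22, adjusted p = 0.398). Cap2, a cyclase-associated actin regulator, was the member that rose, by 1.39.

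Among 24 transcription factors of young neurons, 5 fell and 0 rose with all arrays, and 2 fell and 0 rose without P14 replicate 2, with list medians of −0.62 and −0.35. Next to Sox11, Klf7, a factor that favours axon growth, fell both ways, with 10.25 and 9.41 in P14 CSMN against 11.90 and 11.68 in P6 CSMN (3.89-fold lower, adjusted p = 0.000749). Klf6, its close relative, and Pou3f3, an upper-layer POU factor, fell by 2.36 and 1.48 with all arrays and did not pass without that array (adjusted p = 0.0927 and 0.0651). For Pou3f3 1 of 2 probe sets had that sign. With all arrays 20.8% of the list was called, against 6.03% of all genes.

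Of 54 axon guidance ligands and receptors, 4 fell and 1 rose with all arrays, and 3 fell and 3 rose without P14 replicate 2. The share called with all arrays was 9.26%, against 6.03% of all genes. Neo1 (neogenin, a receptor of netrins and repulsive guidance molecules) stood at 11.26 and 10.47 in P14 CSMN, against 12.57 and 12.54 in P6 CSMN (3.22-fold lower, adjusted p = 0.00113). Vangl2, of the planar polarity pathway that guides axons along the body axis, had 7.75 and 5.59 in P14 CSMN, against 9.27 and 9.69 in P6 CSMN, so replicate 2 was far the lower (−2.81, adjusted p = 0.00609, and −1.73, adjusted p = 0.0206, without it). Draxin, a repulsive ligand, had 5.99 and 7.28 in P14 CSMN, against 8.79 and 8.81 in P6 CSMN (−2.17, and −2.81 without P14 replicate 2), with 1 of 2 probe sets of that sign. Slit3, a repulsive ligand of Robo receptors, rose, with 8.57 and 8.58 in P14 CSMN against 6.80 and 6.75 in P6 CSMN (3.48-fold, adjusted p = 0.000828).

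Matrix genes had the highest share of calls of any list with all arrays, 31.2% of 16 genes, 4 lower and 1 higher both ways. Besides Vcan, these were Ptprz1, a receptor phosphatase and proteoglycan, at 7.88 and 7.24 in P14 CSMN against 9.83 and 10.25 in P6 CSMN (5.58-fold lower, adjusted p = 0.00408), and Ncan (neurocan), at 10.85 and 10.23 in P14 CSMN against 11.83 and 12.21 in P6 CSMN (2.79-fold lower, adjusted p = 0.00419). Has3, a hyaluronan synthase, had 6.81 and 7.41 in P14 CSMN against 8.79 and 9.33 in P6 CSMN (3.87-fold lower, adjusted p = 0.0163). Nptx2, a pentraxin that gathers AMPA receptors, was the member that rose, at 6.90 and 5.98 in P14 CSMN against 5.44 and 5.49 in P6 CSMN (adjusted p = 0.0450). The list median was 0.08, against 0.04 for all genes, of which 6.03% were called with all arrays.

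Receptors for myelin inhibitors and other limits on axon growth had 3 rises and 0 falls among 18 genes with all arrays, and 2 rises without P14 replicate 2. Lynx1, a membrane protein that damps nicotinic receptors and limits visual cortex plasticity in the mouse, stood at 12.40 and 12.59 in P14 CSMN, against 11.00 and 10.40 in P6 CSMN (3.48-fold, adjusted p = 0.000749). Sorl1, a sorting receptor, had 12.46 and 12.14 in P14 CSMN, against 10.71 and 10.82 in P6 CSMN (2.90-fold, adjusted p = 0.0141). Klf9, a thyroid hormone-induced factor that restrains axon growth, had 12.06 and 11.79 in P14 CSMN, against 10.93 and 10.68 in P6 CSMN (2.17-fold, adjusted p = 0.0424, and 0.0844 without P14 replicate 2). Rtn4r, the Nogo receptor, did not pass, at 10.49 and 9.73 in P14 CSMN against 9.66 and 9.71 in P6 CSMN. The share of the list called with all arrays was 16.7%, against 6.03% of all genes.

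Cholesterol synthesis had the lowest list median with all arrays, −0.89, and −0.40 without P14 replicate 2. Of 20 genes 5 fell and 1 rose with all arrays, and 2 fell and 1 rose without that array. Cyp51, the lanosterol demethylase, stood at 7.53 and 5.43 in P14 CSMN, against 9.38 and 9.40 in P6 CSMN (−2.91 ± 0.48, adjusted p = 0.00377, and −1.86 with adjusted p = 0.00772 without P14 replicate 2). Lss, the lanosterol synthase, had 8.13 and 7.89 in P14 CSMN, against 9.14 and 9.54 in P6 CSMN (2.51-fold lower, adjusted p = 0.00816), and also fell both ways. Insig1 and Idi1 fell by 1.47 and 1.34 with all arrays and did not pass without it. Cyp46a1, which turns cholesterol into the form that leaves the brain, was the member that rose, with 12.53 and 11.997 in P14 CSMN against 10.82 and 10.76 in P6 CSMN (2.78-fold, adjusted p = 0.0120). Of the list, 30% was called with all arrays, against 6.03% of all genes.

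In energy metabolism, 1 of 16 glycolysis genes and 0 of 45 oxidative phosphorylation genes passed with all arrays, and 2 and 0 without P14 replicate 2. The glycolysis list was called at 6.25% with all arrays, against 6.03% of all genes. Ldhb, the lactate dehydrogenase subunit that favours pyruvate, rose to 12.86 and 12.53 in P14 CSMN, against 11.57 and 11.31 in P6 CSMN (2.38-fold, adjusted p = 0.00158, all 4 probe sets). At P14, 31 of the 45 oxidative phosphorylation genes had a positive difference with all arrays and 36 without P14 replicate 2, with list medians of 0.20 and 0.24. Among 34 cytosolic ribosomal proteins the medians were −0.46 and −0.34, 4 had a positive difference either way, and 1 fell, Rps4x (−0.87, adjusted p = 0.0332, 1 of 2 probe sets), which did not pass without that array. Rps25 passed only without it, at 6.99 and 8.24 in P14 CSMN against 8.32 and 8.34 in P6 CSMN.

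Over all genes, 64.8% of the calls were lost without P14 replicate 2. For DNA methylation and chromatin, 5 of 34 genes fell and 1 rose with all arrays, and 1 fell and 2 rose without. Ezh2, the histone methyltransferase of Polycomb complex 2, fell both ways, with 5.70 and 6.60 in P14 CSMN against 7.13 and 7.53 in P6 CSMN (adjusted p = 0.0224 and, without replicate 2, 0.00282). Actl6a, the BAF complex subunit of progenitors, and Smarca2 (1 of 2 probe sets) fell by 1.70 and 1.66 with all arrays alone, and Hdac11, a histone deacetylase, rose by 1.17 with all arrays alone. Of 26 motor neuron disease genes 3 fell and 0 rose with all arrays, and Pfn1 (profilin 1) alone passed without P14 replicate 2, at 7.85 and 8.23 in P14 CSMN against 9.17 and 9.04 in P6 CSMN (2.10-fold lower, adjusted p = 0.0202 and 0.0224). The other 2 were Tardbp (TDP-43) and Spast (spastin), which fell by 1.74 and 1.57. For Tardbp 4 of 5 probe sets had that sign, and 2 of 5 without P14 replicate 2. For Spast it was 2 of 2, and 1 of 2 without that array. With all arrays 17.6% of the chromatin list and 11.5% of the motor neuron disease list were called, against 6.03% of all genes.

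Of 25 splicing regulators, Mbnl2, a muscleblind protein that sets mature exon choice, rose both ways, with 11.01 and 10.67 in P14 CSMN against 9.46 and 9.18 in P6 CSMN (2.87-fold, adjusted p = 0.00346). Ptbp2, which holds exons in their immature form, fell by 1.07 with all arrays alone (adjusted p = 0.0332, and 0.248 without). In intrinsic apoptosis, Hrk, a BH3-only death activator, rose both ways, at 9.43 and 8.08 in P14 CSMN against 7.203 and 7.66 in P6 CSMN (2.50-fold). The Hrk difference was 1.32 with all arrays (adjusted p = 0.0399), 2.00 without P14 replicate 2 and 0.64 without P14 replicate 1. Apaf1 and Mcl1 fell by 1.73 and 1.04 with all arrays alone. Among 26 neurotrophic factors and receptors, Igfbp4 rose both ways and Irs1, the insulin receptor substrate, fell by 2.03 with all arrays alone. With all arrays 17.6% of the apoptosis list, 8% of the splicing regulators and 7.69% of the neurotrophic list were called, against 6.03% of all genes.

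**Figure D3:**
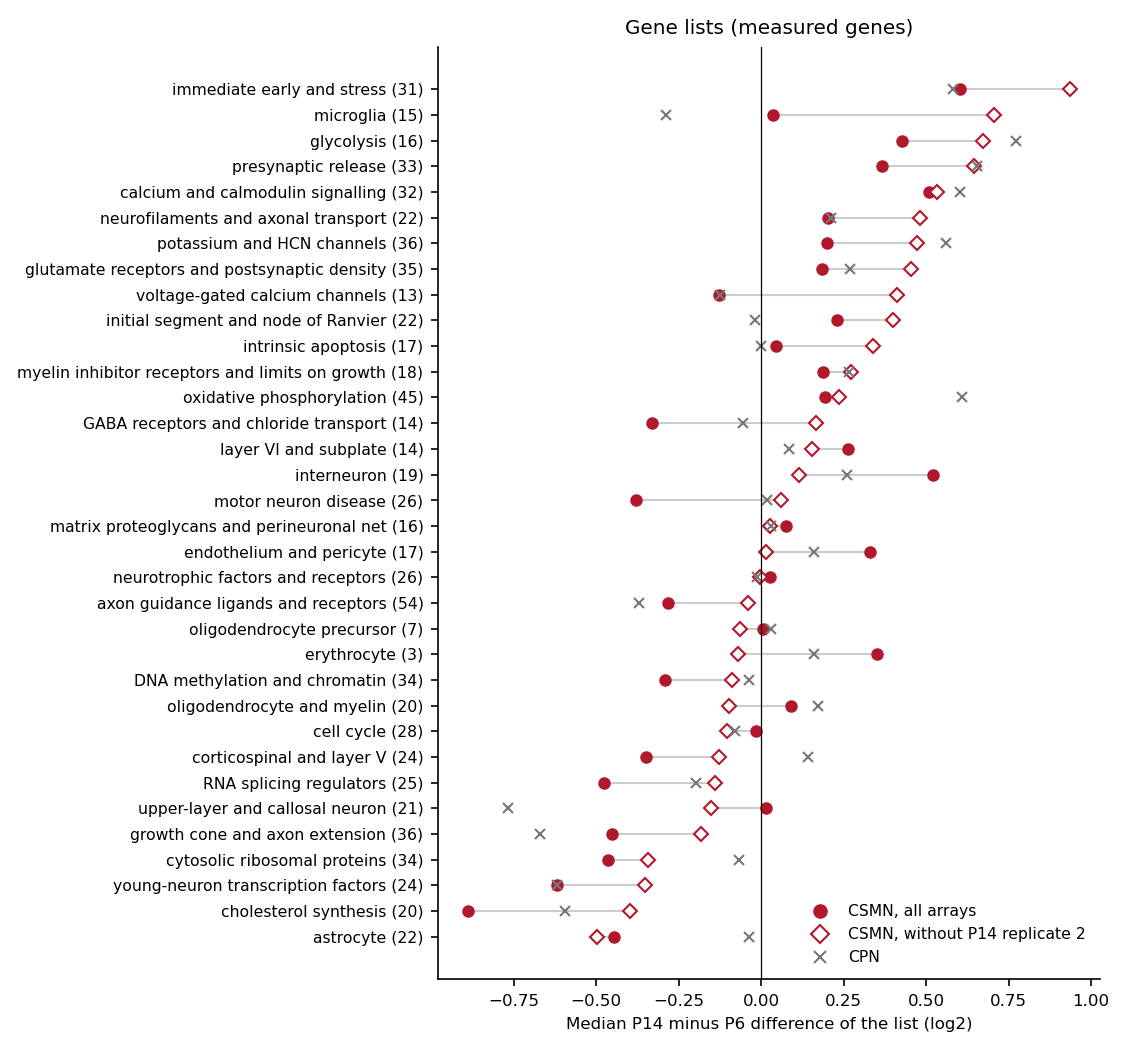
Median P14 minus P6 difference (log2) of each of the 34 gene lists, with the number of measured genes in brackets, for CSMN with all arrays (filled circles), CSMN without P14 replicate 2 (open diamonds) and CPN (crosses). The immediate early and stress list is highest in CSMN, at 0.60 and 0.93, and for most lists the median without P14 replicate 2 lies to the right of that with all arrays.

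The step that preceded P6 had few calls. Between P3 and P6, 5 genes rose in CSMN and 0 fell (0.0275% of all genes). They were Lypd1, Syt17, Rasgrp1, Rasgrf1 and Igfbp4, with differences of 2.38, 1.93, 1.83, 2.17 and 1.77, and the first 4 were chosen after their values were seen. The count was 0 without P6 replicate 1, with 223 genes at an unadjusted p under 0.05, and 3, 2, 4 and 3 without P3 replicates 1, 2 and 3 and P6 replicate 2. Sox11 in CSMN averaged 12.94, 12.75, 11.73 and 8.04 at E18, P3, P6 and P14, and Nefh 6.60, 7.69, 8.37 and 11.27. Camk2a held 9.29, 9.43 and 9.49 through P6 and stood at 11.92 at P14.

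**Figure D4:**
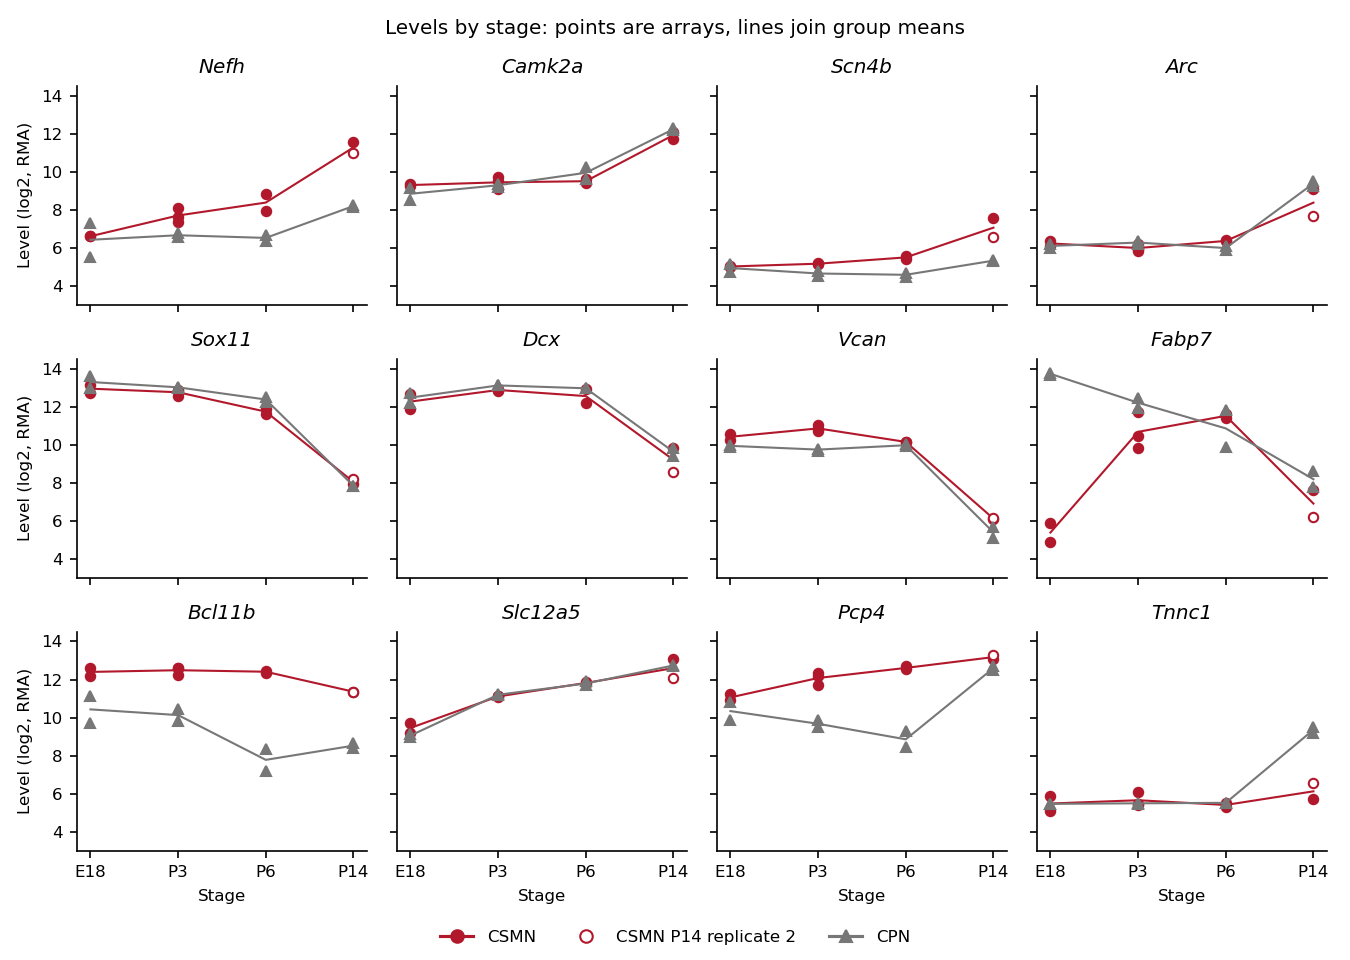
Levels (log2, RMA) of 12 genes at E18, P3, P6 and P14 in CSMN (circles) and CPN (triangles), 1 symbol per array, lines joining group means, with CSMN P14 replicate 2 drawn open. Sox11, Dcx and Vcan stand lower at P14 than at P6 in both neuron types, Bcl11b stays higher in CSMN at each stage, and Tnnc1 is high in CPN at P14 alone.

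Most genes called both ways in CSMN were also called in callosal neurons. In CPN 1062 genes differed between P14 and P6 (5.84%), 641 higher (3.52%) and 421 lower (2.31%). Of the 200 genes higher both ways in CSMN, 141 (70.5%) were also called higher in CPN, where they made up 22.0% of the CPN rises, and 0 were called lower. Of the 186 lower both ways, 123 (66.1%) were called lower in CPN, 29.2% of the CPN falls, and 0 higher. Across 18193 genes, which are not independent replicates, the CSMN and CPN differences correlated at r = 0.588 with all arrays and 0.664 without CSMN P14 replicate 2. The comparisons share no array, but both were tested in 1 fit with the same spread for each gene. The 2 sets of calls are therefore not independent. In CPN, Nefh rose by 1.68, Camk2a by 2.30 and Lamp5 by 5.03, while Sox11 and Dcx differed by −4.54 and −3.34.

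A test of the difference between the steps called 6 genes (0.033%), all with a lower step in CSMN, and 1176 at an unadjusted p under 0.05 (256 higher, 1.41%, and 920 lower, 5.06%). Each of the 6 rose in CPN. Pcp4, a calmodulin-binding peptide and marker of layer V, stood at 13.07 and 13.29 in P14 CSMN against 12.69 and 12.53 in P6 CSMN, and at 12.69 and 12.52 in P14 CPN against 8.44 and 9.27 in P6 CPN (difference of the steps −3.18 ± 0.45, adjusted p = 0.0234). Tnnc1, the slow troponin C, had 5.70 and 6.54 in P14 CSMN against 5.30 and 5.51 in P6 CSMN, all below the array medians, and 9.51 and 9.21 in P14 CPN against 5.51 and 5.52 in P6 CPN (−3.13 ± 0.43, adjusted p = 0.0213). Lin7b, a PDZ scaffold of synapses, had 11.30 and 11.37 in P14 CSMN against 10.90 and 10.43 in P6 CSMN, and 12.17 and 12.14 in P14 CPN against 9.46 and 9.44 in P6 CPN (−2.04 ± 0.27, adjusted p = 0.0163). Its step in CSMN had the same sign in 2 of 4 probe sets.

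The others were Strip2, Cd302 (a C-type lectin receptor) and Hkdc1 (a hexokinase-like enzyme), with differences of the steps of −2.90, −2.51 and −1.67 and adjusted p = 0.0149, 0.0404 and 0.0378. All 6 passed without CSMN P14 replicate 2, where 10 genes passed (0.055%), 7 lower (0.0385%) and 3 higher (0.0165%). The 3, named after their values were seen, were Ntsr1, Hrh3 and Dpysl3, with differences of the steps of 2.69, 2.60 and 2.26. Pcp4 and Lin7b did not pass under quantile (adjusted p = 0.0747 each) or cyclic loess normalization (0.106 each), nor Cd302 and Hkdc1 with the mean of their probe sets (0.0659 and 0.596). These calls leaned on single arrays: the count was 0 without CPN P6 replicate 1, CPN P14 replicate 1, CPN P14 replicate 2 or CSMN P6 replicate 1 (1796, 593, 1027 and 579 genes at an unadjusted p under 0.05), 2 without CSMN P6 replicate 2, 12 without CPN P6 replicate 2 and 3932 without CSMN P14 replicate 1. With array weights, and with the 4 groups alone, it was also 0, with 601 and 794 genes at an unadjusted p under 0.05. For Bcl11b, which did not pass, the CSMN difference was −1.05 and the CPN difference 0.75, and for Crym −0.32 and 3.21 (adjusted p of the difference of the steps 0.579 and 0.0830).

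**Figure D5:**
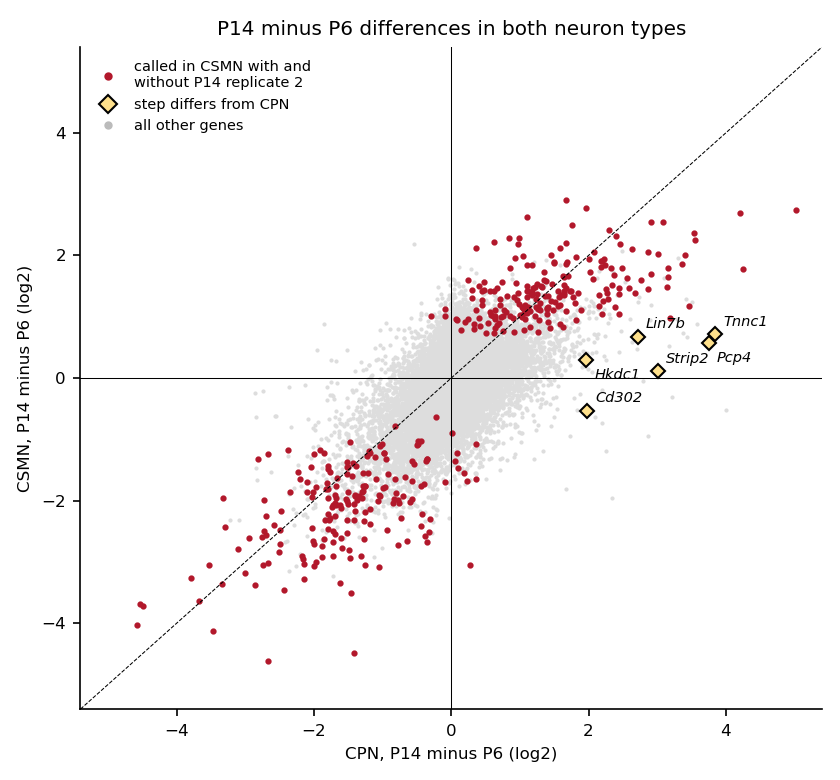
P14 minus P6 difference of each of 18193 genes in CSMN (vertical axis, log2) against CPN (horizontal axis, log2), with the 386 genes called in CSMN both ways in red, the 6 genes whose steps differed as yellow diamonds, and a dashed line where the steps are equal. Most red points lie in the lower left and upper right quadrants, and the 6 diamonds lie to the right, between 1.97 and 3.84 in CPN and between −0.53 and 0.72 in CSMN.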

How the data were processed

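RNA was sorted, extracted and amplified in 2 rounds of in vitro transcription, per the labels' protocols. The deposited log2 values were made by the authors with RMA, per the submitters' processing notes (no version; the genome build is not given in the sources used here), and ran from 3.17 to 14.4. No column was left out, and nothing was added to the normalization. Of 45101 probe sets, 34945 carry 1 gene symbol, 932 several and 9160 none. Each gene was read from its brightest probe set, by the mean over all arrays, among those with 1 symbol (18193 genes). Counts of probe sets with the same sign are from all arrays unless stated. Without CSMN P14 replicate 2 some were lower (Tardbp 2 of 5, from 4) and some higher (Slc1a3 6 of 6, from 3).

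In limma, 1 mean per group (9 groups, 19 arrays) was fitted two-sided, which left 10 residual degrees of freedom beside 4.46 from the prior, with Benjamini-Hochberg adjustment over all genes and a threshold of 0.05. It was fitted again without CSMN P14 replicate 2 (9 residual and 4.87 prior). Errors are the model's SE. Precision is limited by having 2 arrays a group. Simulated data with known differences were used to test the fit. Replicate numbers name independent collections: deviations of P14 and P6 replicate 1 from their group means correlated at r = −0.05 in CSMN and 0.272 in CPN. With 1 such value per neuron type and no shared batch in the labels, the numbers were not taken to pair the arrays.

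The comparison, the 34 gene lists (890 genes, 803 measured) and the genes named were chosen with earlier results of these data known. The rule names, in each direction, the 12 genes with the largest smaller difference of both fits among those called in both with no overlap between the ages, 6 for the difference of the steps, up to 4 called members per list, and Bcl11b, Fezf2, Crym, Gap43, Nrgn, Slc12a5 and Nefh always. For each list, values of at most 3 familiar members below the threshold are added; other members named to account for a count were chosen after their values were seen. Alternatives were quantile and cyclic loess normalization, brightness, probe set choice, spread, size, groups fitted, a replicate block and leaving out each array. Promoters came from RefSeq tables. R 4.3.3, limma 3.58.1, Python 3.11.15 and matplotlib 3.10.9 were used.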

Additional observations from a re-analysis of the deposited data

Results flagged for a closer look

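For 6 genes the step from P6 to P14 differed between CSMN and CPN by the interaction test in limma, each lower in CSMN. The differences of the steps were −3.18 for Pcp4, −3.13 for Tnnc1, −2.90 for Strip2, −2.51 for Cd302, −2.04 for Lin7b and −1.67 for Hkdc1 on the log2 scale, with adjusted p between 0.0149 and 0.0404. Pcp4 and Lin7b did not pass under quantile or cyclic loess normalization (adjusted p = 0.0747 and 0.106 for each), Cd302 did not with the mean of its probe sets (0.0659), and Hkdc1 did not with that mean (0.596), among genes above the median brightness (0.0706), with an intensity trend in the spread (0.0621) or with the replicate block (0.0578). None of the 6 passed with array weights or with the groups compared alone. Without CSMN P14 replicate 2 they were −3.29, −3.55, −2.61, −2.63, −2.07 and −1.44. In each case both CPN P14 arrays were above both CPN P6 arrays. The genes were picked by a test on these same arrays, so this adds no support.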

How the results depend on the processing

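For P14 against P6 in CSMN the 1097 calls became 42 with array weights and 0 with the groups compared alone, and 106 to 7831 with 1 array left out; the other 7 settings and the replicate block gave 927 to 1546, and the block 1222. The share of higher calls, 29.1%, was 45.9% with cyclic loess and 41.1% with the mean of all probe sets. Without P14 replicate 2 the 581 calls became 2756 with array weights and 3409 with the groups alone, and the share of higher calls, 65.6%, was 55.3% with quantile normalization. The 386 calls made both ways became 606 with cyclic loess, 42 with array weights and 0 with the groups alone. For the difference of the steps the 6 calls became 3 among genes above the median brightness, 14 with the mean of all probe sets, 0 with array weights, 0 with the groups alone and 0 to 3932 with 1 array left out; without P14 replicate 2 the 10 became 6, 148 and 0 by brightness, array weights and the groups alone. For P6 against P3 the 5 became 16 with cyclic loess, 9 by brightness, 1 with the mean of probe sets, 845 with array weights, 11 with the groups alone, 3 with the replicate block and 0 to 4 with 1 array left out. The cause was not tested. For P14 against P6 in CSMN, the fit without P14 replicate 1 called the most genes of any setting, so a call kept there says little. Of the 24 genes with the largest differences, chosen as called without P14 replicate 2, 24 stayed called without P6 replicate 1 or P14 replicate 1, and 23 without P6 replicate 2. Of all 92 named genes called, 47 and 35 stayed called without P6 replicate 1 and 2, 89 and 62 without P14 replicate 1 and 2, and 0 changed sign in any setting. With the replicate number as a block, 1033 of the calls were shared with the fit without it, and Hkdc1 lost its call for the difference of the steps (adjusted p = 0.0578); the numbers are not taken to pair the arrays (r = −0.05 in CSMN, 0.272 in CPN). Levels below the array medians may lie near background, and no fold is given there.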
